A study of Mus musculus with 12 samples.

Results

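The immunoglobulin gene segments are the V, D, J and constant (C) genes from which B cells build antibodies. They were taken as every row of the deposited gene count table with the biotype IG_V, IG_D, IG_J, IG_C or IG_LV gene, pseudogenes left out, which gave 268 of 54532 genes. They comprise 222 V, 19 D, 14 J and 13 C genes. RNA was sequenced from tumours of wild-type B16F10, a pigmented mouse melanoma line, implanted intradermally in the legs of 8- to 12-week-old male mice. The 6 Ctrl libraries came from Trex1 wt/fl R26CreERT2-ki/wt hosts, and the 6 iKO libraries from hosts that carried 2 floxed copies (Trex1 fl/fl R26CreERT2-ki/wt). Trex1 encodes a DNA exonuclease of the cytosol. Both groups carried the tamoxifen-dependent Cre at the Rosa26 locus, which is active in most tissues and not only in blood cells. Both groups also received 1 mg of tamoxifen by intraperitoneal injection on 3 consecutive days from day 5 after implantation. Harvest was on day 14. By the cell type label, the sort kept cells negative for CD45, found on nearly all white blood cells, and CD31, found on endothelium, whereas the protocol joins these gates by "or". The design text speaks of immune cells, so the labels disagree on which cells were sequenced. The labels do not say which mouse gave which library, so p-values measure the spread between libraries and not that between mice.

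Antibodies consist of heavy chains, encoded at the Igh locus on chromosome 12, and light chains, encoded at the kappa locus (Igk, chromosome 6) or the lambda locus (Igl, chromosome 16). In a developing B cell, RAG enzymes join a V, a D and a J segment at Igh, and a V and a J segment at a light chain locus. Each B cell clone and its plasma cells then transcribe their own V gene together with the constant gene downstream. The heavy chain constant gene sets the isotype: Ighm and Ighd give IgM and IgD on naive B cells, and class switching brings Ighg, Igha or Ighe genes into use. Counts over V genes can thus reflect which clones contributed RNA, and counts over constant genes which isotypes. The deposited counts do not show whether the RNA came from rearranged loci.

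The sequences below, from GENCODE M21 transcripts (GRCm38, the assembly that mm10 names), show how the counted segments differ and how alike some of them are. The 4 heavy chain J segments carry the letters TGGGGNNNNGG, which encode the tryptophan and glycine motif that opens the fourth framework region. That motif, searched on the coding strand only, is shown in capitals. It was found in 4 of 4 Igh J genes, 0 of 5 Igk J genes and 0 of 5 Igl J genes. The segments lie on the minus strand of mm10 at chr12:113429781-113429833 (Ighj1), chr12:113429468-113429515 (Ighj2), chr12:113429085-113429132 (Ighj3) and chr12:113428514-113428567 (Ighj4). For Ighj2 the 48-base J transcript is printed, whereas the counted gene spans 100 bases, chr12:113429468-113429567.
Ighj1: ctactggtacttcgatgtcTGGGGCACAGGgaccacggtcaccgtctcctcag
Ighj2: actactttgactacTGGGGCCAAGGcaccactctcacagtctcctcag
Ighj3: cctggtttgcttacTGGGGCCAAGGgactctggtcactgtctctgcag
Ighj4: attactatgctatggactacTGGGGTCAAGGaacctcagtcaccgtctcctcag

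Heavy chain V genes are shown by Ighv1-55, Ighv3-6 and Ighv1-9, which had the most counts, and Ighv1-78, which tied with Ighv6-3 for the next place and led in iKO 1. Printed are the last 60 bases of their transcripts, the end that is joined to D and J. The capitals mark the codon of the conserved cysteine that opens the third complementarity-determining region, the loop that differs most between antibodies. All 4 lie on the minus strand, at chr12:115208095-115208154 (Ighv1-55), chr12:114288152-114288211 (Ighv3-6), chr12:114583569-114583628 (Ighv1-9) and chr12:115868773-115868832 (Ighv1-78).
Ighv1-55: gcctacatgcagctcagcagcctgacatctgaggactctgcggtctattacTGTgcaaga
Ighv3-6: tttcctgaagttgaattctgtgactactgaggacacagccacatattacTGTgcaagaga
Ighv1-9: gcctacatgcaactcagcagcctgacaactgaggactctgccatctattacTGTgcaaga
Ighv1-78: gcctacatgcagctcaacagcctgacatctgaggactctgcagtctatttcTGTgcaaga

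The kappa V genes of families 4 and 10 held most kappa V counts and are shown because genes of the same family are near-copies of each other. The capitals mark positions that differ within each family's set, 9 of the last 60 bases in family 4 and 10 of 60 in family 10. Igkv4-57-1 (chr6:69544359-69544418), Igkv4-59 (chr6:69438218-69438277), Igkv4-57 (chr6:69575975-69576034) and Igkv4-55 (chr6:69607275-69607334) lie on the minus strand. So do Igkv10-96 (chr6:68631963-68632022) and Igkv10-94 (chr6:68704508-68704567), while Igkv10-95 (chr6:68680789-68680848) lies on the plus strand and ends in the same 60 bases as Igkv10-94.
Igkv4-57-1: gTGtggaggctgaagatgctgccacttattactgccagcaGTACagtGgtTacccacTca
Igkv4-59: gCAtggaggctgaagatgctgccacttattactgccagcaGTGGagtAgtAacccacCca
Igkv4-57: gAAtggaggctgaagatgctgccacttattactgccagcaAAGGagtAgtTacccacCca
Igkv4-55: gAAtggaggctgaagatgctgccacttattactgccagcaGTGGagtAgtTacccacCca
Igkv10-96: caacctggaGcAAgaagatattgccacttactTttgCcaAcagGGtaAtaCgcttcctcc
Igkv10-94: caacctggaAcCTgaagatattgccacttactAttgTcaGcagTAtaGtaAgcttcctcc

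Library totals ranged from 34.3 to 45.8 M counts in Ctrl and from 29.8 to 35.5 M in iKO. Levels are given as CPM, counts scaled to a common library size with TMM factors. Where a gene had no count, up to 3 counts remain possible in that library, which is 0.0642 to 0.102 CPM by library, and floors and intervals cover counting error only. Trex1 had 0 counts in every library, so it gives no check of the genotype labels. The libraries labelled iKO 2 and iKO 3 went against the male label: 4 Y-linked genes summed to 44 and 0 counts there, against 239 to 1513 in the other iKO libraries, and Xist had 6869 and 4124 counts, against 2 to 247. CD45 RNA (Ptprc) was not absent after the sort and rose in iKO (log2 fold change 5.98 ± 1.20, SE; edgeR, adjusted p = 0.00244), as did CD31 RNA (Pecam1, 1.38 ± 0.25, adjusted p = 0.000565). Summed over 4 leukocyte markers, Ctrl 5 held 66.7 CPM against 1.80 to 7.43 in the other Ctrl libraries, and iKO 1 held 55.6 CPM against 497 to 967 in the other iKO libraries. In this sum Ctrl 5 and iKO 1 were closer to each other than to their groups. The log2 fold change of Ptprc was 8.33 without Ctrl 5 and 8.58 without both.

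Immunoglobulin RNA was sparse in all tumours and higher in iKO. At least 1 count was found for 60 of the 268 genes, 11 of them in Ctrl and 56 in iKO, and 208 genes were at 0 in all 12 libraries. Ctrl libraries 1 to 6 held 20, 10, 24, 23, 97 and 34 immunoglobulin counts, and iKO libraries 1 to 6 held 132, 402, 530, 925, 1096 and 903. The groups did not overlap, with Ctrl 5 the highest Ctrl library and iKO 1 the lowest iKO library. The summed level was 0.897 ± 0.891 CPM in Ctrl and 20.4 ± 11.4 CPM in iKO (SD, n = 6 each). Ctrl 5 alone held 46.6% of the Ctrl counts. In these bulk libraries fewer cells of a type and less RNA per cell cannot be told apart.

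Constant genes carried 3616 of the 3988 iKO counts (90.7%), V genes 326 (8.17%), J genes 44 (1.10%) and D genes 2. In Ctrl, 195 of 208 counts lay in constant genes and 13 in V genes, while J and D genes were at 0. Of the 161 immunoglobulin pseudogenes, which were not members, 1 had counts, 0 in Ctrl and 2 in iKO. The summed levels were thus mostly those of constant genes. Only Ighm and Igkc passed the filter on low counts, and both were called higher in iKO (edgeR, adjusted p under 0.05), beside 25.0% of all 16164 tested genes that were higher and 21.4% that were lower. Both passed the filter mainly through their iKO counts, which favours a call of higher. With that and so many genes called, 2 of 2 members says little about the set. Over all genes with a count and no filter, 6 of the 60 members were called higher and 0 lower, against 14.1% and 12.9% of all 29337 genes. At an unadjusted p under 0.05 in that fit, 32 of the 60 members were higher and 0 lower, against 22.1% and 17.1% of all genes. Many of the 32 had counts in only 1 library, such as Ighg3 (8 counts, iKO 2) and Iglc2 (6 counts, iKO 6). For such genes the p-value rests on 1 library and does not show a difference between the groups. At the adjusted threshold the share of members called was not above the background.

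By locus, the heavy chain locus held the most counts. Igh summed to 0.343, 0.234, 0.527, 0.670, 1.90 and 0.394 CPM in Ctrl 1 to 6 and to 3.97, 12.01, 12.2, 28.6, 24.9 and 23.4 CPM in iKO 1 to 6. Every iKO library lay above every Ctrl library. Igk summed to 0.0856, 0, 0, 0, 0.579 and 0.350 CPM in Ctrl and to 0.291, 0.766, 2.58, 2.17, 7.38 and 2.97 CPM in iKO. Here iKO 1 lay below Ctrl 5 and Ctrl 6, and iKO 5 stood highest. Igl, the minor light chain locus in mice, reached 0.193 CPM at most in Ctrl (Ctrl 5) and 0.611 CPM in iKO (iKO 4), and was at 0 in 4 Ctrl libraries and in iKO 1, so the groups overlapped. Group means were 0.678 ± 0.619 against 17.5 ± 9.54 CPM for Igh, 0.169 ± 0.242 against 2.69 ± 2.52 for Igk and 0.0498 ± 0.0819 against 0.220 ± 0.245 for Igl (SD, n = 6 each, Ctrl first). Without Ctrl 5 the Ctrl means were 0.434, 0.0872 and 0.0211 CPM. Without iKO 5 the iKO mean of Igk was 1.76 CPM, and without iKO 4 that of Igl was 0.141 CPM.

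**Figure D1:**
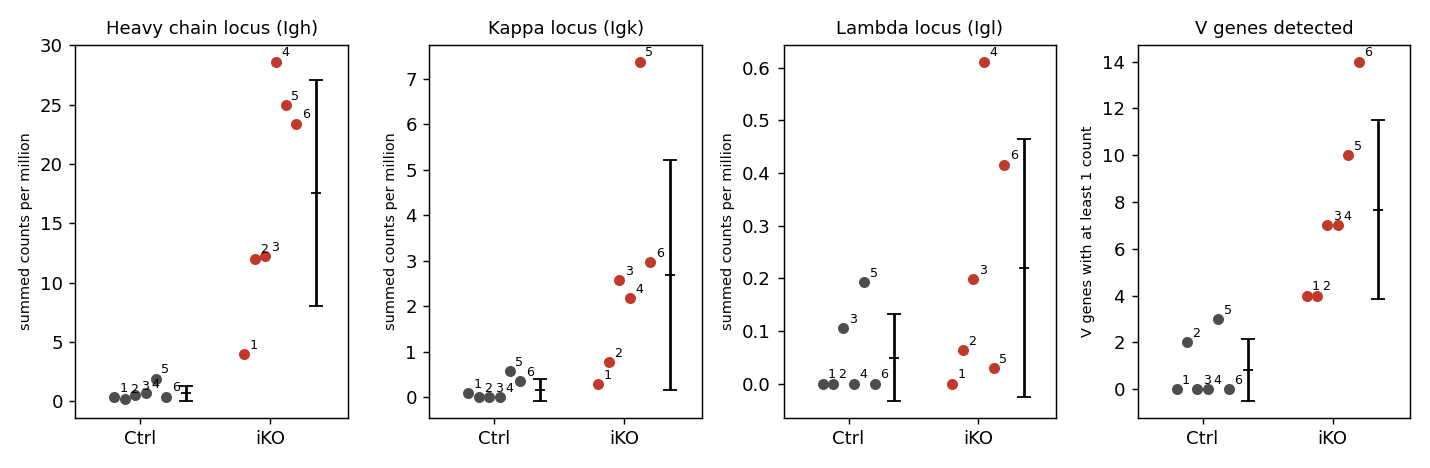
Summed CPM of the heavy chain, kappa and lambda loci, and the number of V genes with at least 1 count, with a point for each library (numbered 1 to 6) and bars for mean and SD of each group. The iKO libraries lie above all Ctrl libraries at Igh and in V genes detected, whereas at Igk and Igl the groups overlap.

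Ighm (ENSMUSG00000076617, chr12:113418558-113422730, minus strand), the mu heavy chain constant gene of IgM, was the most counted member. It held 0, 0, 0, 10, 60 and 2 counts in Ctrl 1 to 6 and 64, 330, 341, 731, 626 and 675 counts in iKO 1 to 6, which is 69.4% of all iKO immunoglobulin counts. The iKO libraries lay above all Ctrl libraries, although iKO 1 (2.07 CPM) and Ctrl 5 (1.66 CPM) were close, and 11.8% of all tested genes separated the groups in that direction. Mean Ighm was 0.332 ± 0.658 CPM in Ctrl and 14.3 ± 8.32 CPM in iKO (SD over 6 libraries each). Its log2 fold change was 5.47 ± 1.22 (SE; edgeR quasi-likelihood test, adjusted p = 0.00418). Ctrl 5 held 83.3% of the Ctrl counts, and without it the Ighm log2 fold change was 7.82 (adjusted p = 0.000221). Without both Ctrl 5 and iKO 1 it was 8.06 (adjusted p = 2.16e-05), and without both iKO 2 and iKO 3 it was 5.67 (adjusted p = 0.0125). With limma voom in place of edgeR it was 7.55 (adjusted p = 0.0173).

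Igkc (ENSMUSG00000076609, chr6:70726435-70726966, plus strand), the only constant gene of kappa light chains, was the other tested member. It held 4, 0, 0, 0, 18 and 16 counts in Ctrl 1 to 6 and 4, 15, 70, 45, 146 and 66 counts in iKO 1 to 6. The groups overlapped, since iKO 1 (0.129 CPM) lay below Ctrl 5 and Ctrl 6. Mean Igkc was 0.155 ± 0.215 CPM in Ctrl and 1.73 ± 1.48 CPM in iKO (SD over 6 libraries each), and its log2 fold change was 3.45 ± 1.02 (SE; edgeR, adjusted p = 0.0154). The Igkc log2 fold change was 4.18 without Ctrl 5 (adjusted p = 0.00940), 4.29 with limma voom (adjusted p = 0.0195), 4.42 without both Ctrl 5 and iKO 1 (adjusted p = 0.00301) and 3.65 without both iKO 2 and iKO 3 (adjusted p = 0.0260).

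The heavy and light chains were not counted in equal measure. Per kilobase of exon, the iKO level was 7.56 ± 4.41 CPM for Ighm and 3.25 ± 2.78 CPM for Igkc (SD, n = 6). The ratio of Ighm to Igkc per kilobase was 4.51, 6.21, 1.37, 4.58, 1.21 and 2.88 in iKO 1 to 6, above 1 in each library but resting on 4 Igkc counts in iKO 1 and 15 in iKO 2. In Ctrl 5, the only Ctrl library with more than 2 counts of both genes, that ratio was 0.940. Lambda constant genes added few counts. Iglc1 had 4 counts in Ctrl 3, 7 in Ctrl 5, 1 in iKO 3 and 8 in iKO 4. Iglc3 had 3, 1 and 8 counts in iKO 4 to 6, Iglc2 had 6 in iKO 6 only, and Iglc4 was at 0 throughout. Iglc2 and Iglc3 are 95.4% identical with an exact shared stretch of 79 bases, and 20.6% of the exon bases of Iglc3 lie within 2010309G21Rik, so the split between them is uncertain. Kappa made up 100%, 100%, 98.6%, 80.4%, 99.3% and 82.5% of light chain constant counts in iKO 1 to 6. Most lambda constant counts of the iKO group thus came from iKO 4 and iKO 6.

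**Figure D2:**
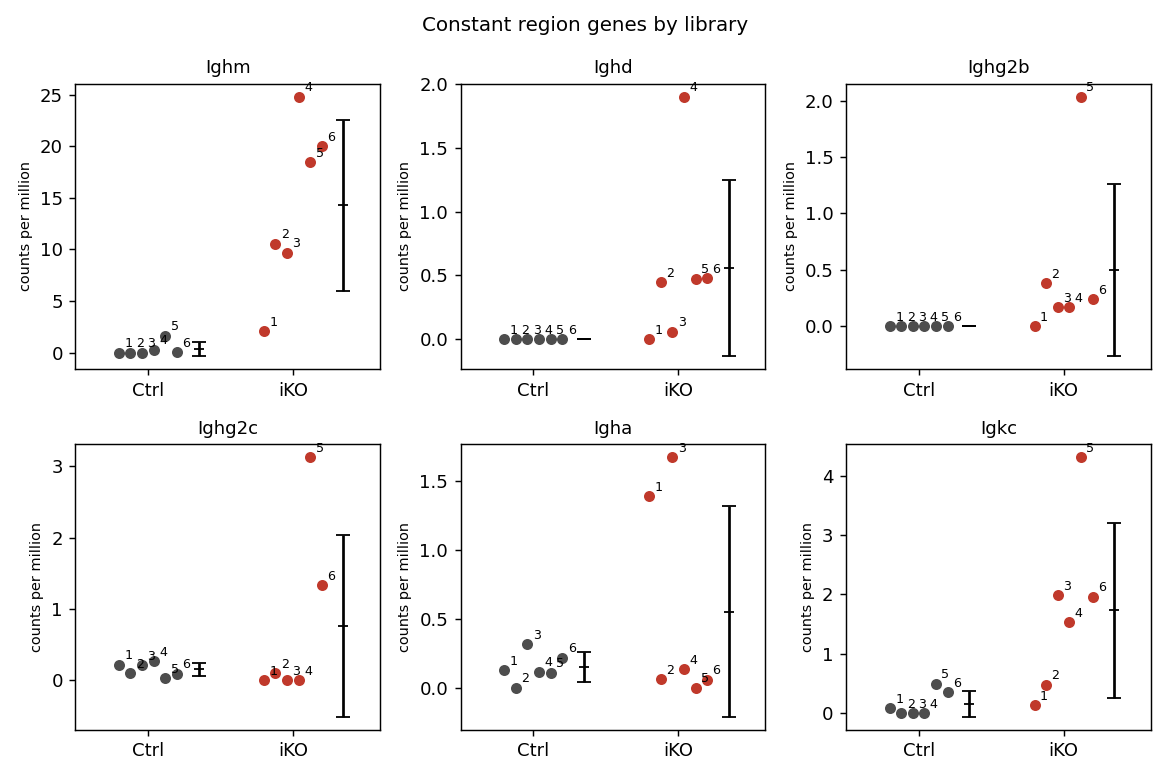
CPM of 6 constant genes in each library (points, numbered 1 to 6), with mean and SD of each group as bars. Ighm separates the groups, Ighd and Ighg2b are at 0 in all Ctrl libraries, Ighg2c is led by iKO 5 and Igha by iKO 1 and iKO 3.

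Ighd (chr12:113406604-113416324), which lies next to Ighm and is made with it in naive B cells by alternative splicing, was at 0 in all Ctrl libraries. It held 0, 14, 2, 56, 16 and 16 counts in iKO 1 to 6, a sum of 104. Taking 3 counts over the 6 Ctrl libraries together as the floor, Ighd was at least 42.4-fold higher in iKO, and at least 23.1-fold without iKO 4, which held 56 of its counts. It did not pass the filter, and in the fit without filter it was called higher (edgeR, adjusted p = 0.00498). The highest Ighd count stood in iKO 4, the library that also held the most Ighm counts.

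Among the switched isotypes, the IgG genes were led by iKO 5. Ighg2b (chr12:113302965-113307933) was at 0 in Ctrl and held 0, 12, 6, 5, 69 and 8 counts in iKO 1 to 6, at least 40.8-fold higher over the group with the same floor and at least 15.4-fold without iKO 5. It was called in the fit without filter (edgeR, adjusted p = 0.00523). Ighg2c (chr12:113285325-113288932), another IgG gene, held 10, 4, 8, 9, 1 and 4 counts in Ctrl and 0, 3, 0, 0, 106 and 45 in iKO. Thus 3 iKO libraries had no Ighg2c count while iKO 5 and iKO 6 stood above all Ctrl libraries. Ighg2c was the constant gene found in the most Ctrl libraries, all 6 of them. Ighg3 had 8 counts in iKO 2 only, and Ighg1 was at 0 in every library. Ighg2c and Ighg2b are 89.1% identical and share an exact stretch of 78 bases, so some reads could have been assigned to either.

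Igha (chr12:113254830-113260236), the constant gene of IgA, the antibody of mucosal surfaces, held 6, 0, 12, 4, 4 and 10 counts in Ctrl and 43, 2, 59, 4, 0 and 2 in iKO. Its iKO counts lay almost wholly in iKO 1 and iKO 3, which held 92.7% of 110 counts. The other iKO libraries were within the Ctrl range of counts. Ighe, the IgE gene, had 2 counts in Ctrl 6 and none elsewhere. No 50-base window of Ighm, Igha or Igkc was shared with another immunoglobulin gene, so these genes could be told apart by reads of that length.

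The mix of heavy chain constant counts differed from library to library within iKO. Ighm made up 59.8% of the 107 heavy chain constant counts in iKO 1 (exact 95% interval 49.9% to 69.2%), 76.6% of 817 in iKO 5 (73.6% to 79.5%) and 91.8% of 796 in iKO 4 (89.7% to 93.6%). It was 89.4%, 83.6% and 90.5% in iKO 2, iKO 3 and iKO 6. IgG genes made up 0%, 6.23%, 1.47%, 0.628%, 21.4% and 7.10% in iKO 1 to 6. Of the 262 IgG counts of the iKO group, 175 (66.8%) came from iKO 5. The counts other than Ighm were mostly Igha in iKO 1 and iKO 3, Ighd in iKO 4 and IgG genes in iKO 2, iKO 5 and iKO 6, where IgG held 23 of 39, 175 of 191 and 53 of 71 of them. In Ctrl 5, Ighm made up 92.3% of 65 counts, whereas in the other Ctrl libraries it made up 0% to 43.5% of 4 to 23 counts.

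**Figure D3:**
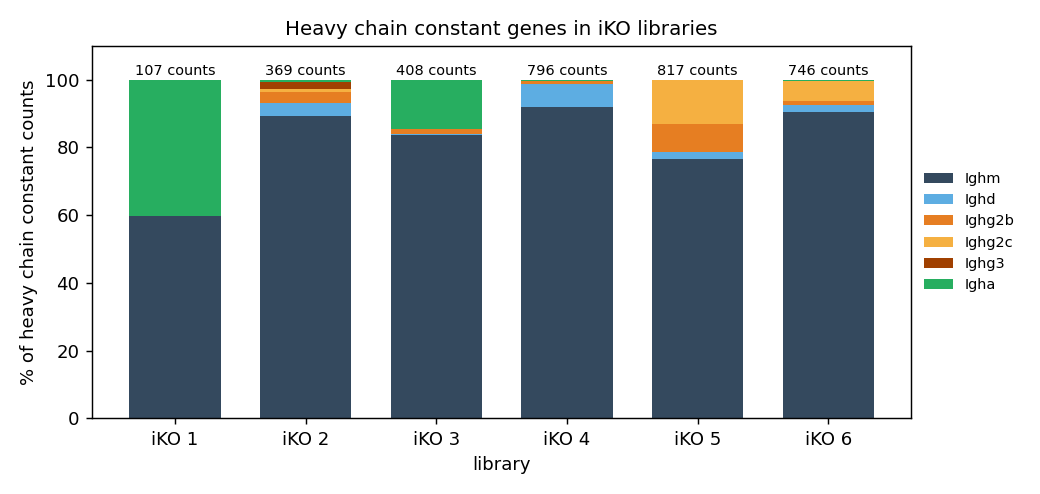
Share of each heavy chain constant gene (percent, stacked bars) among the heavy chain constant counts of each iKO library, with the number of counts above each bar. Ighm is the largest share in all 6 libraries, Igha takes most of the rest in iKO 1 and iKO 3, and IgG genes in iKO 5.

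V genes were detected more often in iKO. With at least 1 count as the limit, Ctrl 1 to 6 had 0, 2, 0, 0, 3 and 0 V genes, and iKO 1 to 6 had 4, 4, 7, 7, 10 and 14. The groups did not overlap, with means of 0.833 ± 1.33 and 7.67 ± 3.83 V genes per library (SD, n = 6 each). Without Ctrl 5 the Ctrl mean was 0.4. With all libraries brought to the depth of the shallowest, the means were 0.782 and 7.51, and with at least 3 counts they were 0.333 and 5. Of 41 V genes detected, 36 were found in iKO only, 3 in Ctrl only (Ighv1-58, Igkv8-27 and Igkv3-10) and 2 in both (Ighv1-80 and Ighv1-82).

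Few V genes were shared between tumours. Of the 41, 32 had counts in 1 library, 8 in 2 libraries and 1 in 3 libraries. That 1 was Ighv6-3, with 2 counts in iKO 1, 8 in iKO 4 and 4 in iKO 6. It was called higher in the fit without filter (edgeR, adjusted p = 0.0445). The V gene with the most counts was a different one in each iKO library: Ighv1-78 with 14 of 21 V counts (66.7%) in iKO 1, Igkv6-20 with 5 of 13 in iKO 2, Ighv1-55 with 20 of 47 (42.6%) in iKO 3, Igkv5-39 with 14 of 39 in iKO 4, Igkv4-57-1 with 31 of 130 (23.8%) in iKO 5 and Igkv4-55 with 18 of 76 in iKO 6. At these counts a V gene at 0 in a library may have been below detection.

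Among heavy chain V genes, 17 of 115 were detected, 12 of them from Ighv1, the largest family with 54 genes and 96 counts. Ighv1-55 was found in iKO 3 only (20 counts), Ighv3-6 in iKO 5 only (17), Ighv1-9 in iKO 6 only (16) and Ighv1-78 in iKO 1 only (14). Ighv1-19 had 8 counts in iKO 6. Over the bases that align, Ighv1-55 is 86.3% identical to Ighv1-9 and 86.2% to Ighv1-78, and Ighv1-9 is 87.1% identical to Ighv1-78, with exact stretches of at most 33 bases. Of their 50-base windows, 34.7% of Ighv1-55, 0.662% of Ighv1-9 and 14.7% of Ighv1-78 were also found in some other immunoglobulin gene, so short reads of Ighv1-55 are the least certain of the 3.

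Among kappa V genes, 21 of 104 were detected, and family 4 (94 counts over 5 of 26 genes) and family 10 (42 counts over 3 of 3 genes) led. iKO 5 held 59 of the family 4 counts (62.8%), as 31 of Igkv4-57-1 and 28 of Igkv4-59, and 41 of the family 10 counts (97.6%), as 24 of Igkv10-96, 13 of Igkv10-94 and 4 of Igkv10-95. Over the bases that align, the 5 genes are near-copies within each family, while the capitals above mark where their ends differ. Igkv4-57-1 and Igkv4-59 are 91.6% identical with an exact stretch of 70 bases, Igkv10-96 and Igkv10-94 are 95.4% identical with 131 bases, and Igkv10-94 and Igkv10-95 are 97.1% identical with 82 bases. How many distinct rearrangements gave the counts in iKO 5 is therefore uncertain. Igkv4-59, which also had 2 counts in iKO 4, was called higher in the fit without filter (edgeR, adjusted p = 0.0444). With 28 of its 30 counts in iKO 5, that p-value rests almost wholly on 1 library. Igkv4-55 (18 counts, iKO 6) shares an exact stretch of 105 bases with Igkv4-59, and Igkv5-39 held 14 counts in iKO 4.

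All 3 lambda V genes were detected, in iKO only. Iglv1 had 3 counts in iKO 3 and 6 in iKO 4, Iglv3 had 2 counts in each of iKO 2 and iKO 3, and Iglv2 had 1 count in iKO 3. Iglv1 and Iglv2 are 96.7% identical, so that count could belong to either. Over all V genes, 22 of the 41 detected V genes (53.7%) and 114 of the 181 others (63.0%) shared no 100-base window with another immunoglobulin gene. With 50-base windows only 6 of 41 (14.6%) and 41 of 181 (22.7%) shared none, so most V genes hold stretches that reads of that length cannot place.

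**Figure D4:**
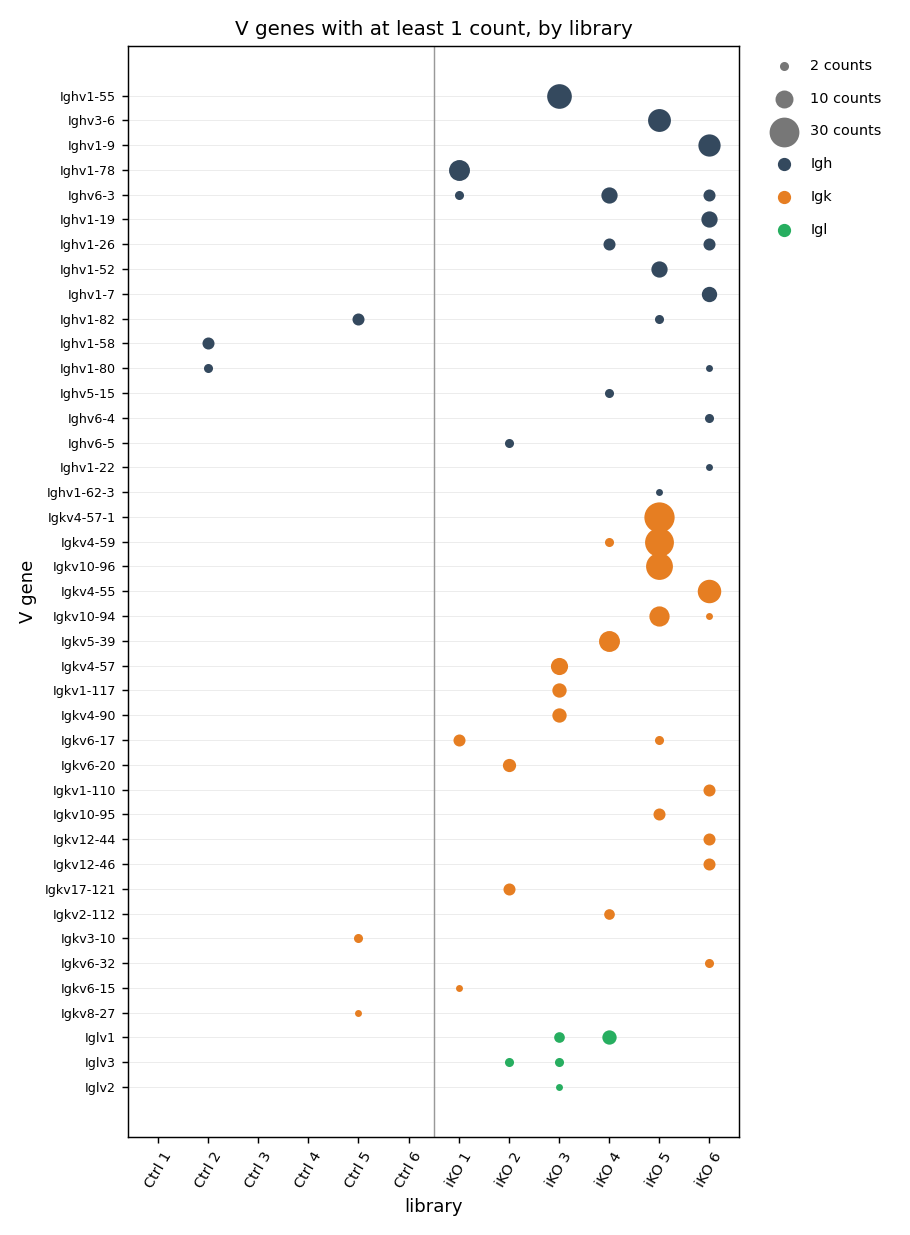
Every V gene with at least 1 count (rows) in each library (columns), with point area proportional to counts and colour for the locus. Most rows hold a point in 1 library, and the largest points, Igkv4-57-1 and Igkv4-59, stand in iKO 5.

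J segments were counted only in iKO. The 4 heavy chain J genes printed above held 40 counts, of which 31 (77.5%) were in iKO 4: 14 of Ighj4, 10 of Ighj2 and 7 of Ighj3. Ighj4 had 2 more counts in iKO 3, Ighj2 and Ighj3 had 2 each in iKO 2, and Ighj1 had 1 in iKO 2 and 2 in iKO 3. No heavy chain J count was found in iKO 1, iKO 5 or iKO 6, although iKO 5 and iKO 6 held 28 and 43 heavy chain V counts. Light chain J genes held 2 counts of Igkj2 (iKO 5), 1 of Igkj5 (iKO 6) and 1 of Iglj1 (iKO 4). Of the 19 D genes, Ighd3-2 alone had counts, 2 in iKO 4. J and D genes are short, so their counts depend on how reads that span a joint were assigned by the authors, for which the sources used here give no setting.

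Of the 5 defining B cell markers, all with few counts, 1 (Cd79a) was tested and 0 were called. Ms4a1 (CD20), which marks mature B cells, was at 0 in all Ctrl libraries and held 2, 4, 6, 14, 20 and 14 counts in iKO 1 to 6. Cd79b, a signalling chain of the B cell receptor, held 0, 0, 2, 4, 9 and 0 counts in Ctrl and 4, 64, 96, 164, 29 and 108 in iKO. Cd79a, its partner, was tested and not called (log2 fold change 0.97; edgeR, adjusted p = 0.0545). The 5 B cell markers summed to 0.304 to 1.43 CPM in Ctrl and to 1.55 to 10.3 CPM in iKO, and iKO 4 was highest for them as for Ighm. Within iKO 5, the library with the most V counts, the B cell marker sum of 3.19 CPM was below those of iKO 2, iKO 3, iKO 4 and iKO 6. Of the 18 genes of the B cell identity list, 7 were tested, 3 rose and 0 fell, beside 25.0% higher and 21.4% lower over all tested genes. The median log2 fold change of the 7 was 2.49. Cd22 and Spib, low in most Ctrl libraries, passed the filter through their iKO counts, which tilts this median and the calls upward. The list medians and call counts given below share this limit. The 3 genes that rose were Cd72 (2.86, adjusted p = 0.000177), Spib (3.26, adjusted p = 0.00558) and Cd22 (3.75, adjusted p = 0.0274). Of the Cd22 counts in Ctrl, 53 were in Ctrl 5 and 2 in Ctrl 6. The Cd22 log2 fold change was 7.99 without Ctrl 5 (adjusted p = 1.50e-05), and the call was lost without Ctrl 4 (adjusted p = 0.0508) or Ctrl 6 (adjusted p = 0.0568). For Spib it was 3.93 without Ctrl 2.

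Plasma cells secrete antibody. Their secretory and receptor genes Jchain, Mzb1 and Tnfrsf17 had few counts, while some regulators on the same list rose and Xbp1 did not. Jchain, which links IgM and IgA into polymers, held 0, 0, 8, 6, 0 and 2 counts in Ctrl and 6, 2, 4, 0, 9 and 14 in iKO. Mzb1, a chaperone of antibody assembly, held 6, 4, 12, 7, 12 and 13 counts in Ctrl and 4, 6, 4, 6, 11 and 22 in iKO. Tnfrsf17 (BCMA), a survival receptor of plasma cells, had 4 counts in iKO 6 and none elsewhere. Of 12 genes of the plasma cell list, 9 were tested, 4 rose and 1 fell (median log2 fold change 0.53), beside 25.0% higher and 21.4% lower over all tested genes. Prdm1 (4.38 ± 0.65, SE; adjusted p = 0.000277), Irf4 (1.77, adjusted p = 0.000641) and Ell2 (1.70, adjusted p = 8.80e-05) rose and are also transcribed in T cells or myeloid cells. Tnfrsf13b (TACI), a receptor for B cell survival ligands, rose by 4.76 (adjusted p = 0.00224), and Fkbp11 fell by 0.72 (edgeR, adjusted p = 0.000423). The other tested genes were not called: Xbp1 (-0.063; edgeR, adjusted p = 0.484), Sdc1 (-0.0058, adjusted p = 0.981), Pim2 (0.022, adjusted p = 0.895) and Derl3 (0.53, adjusted p = 0.337).

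**Figure D5:**
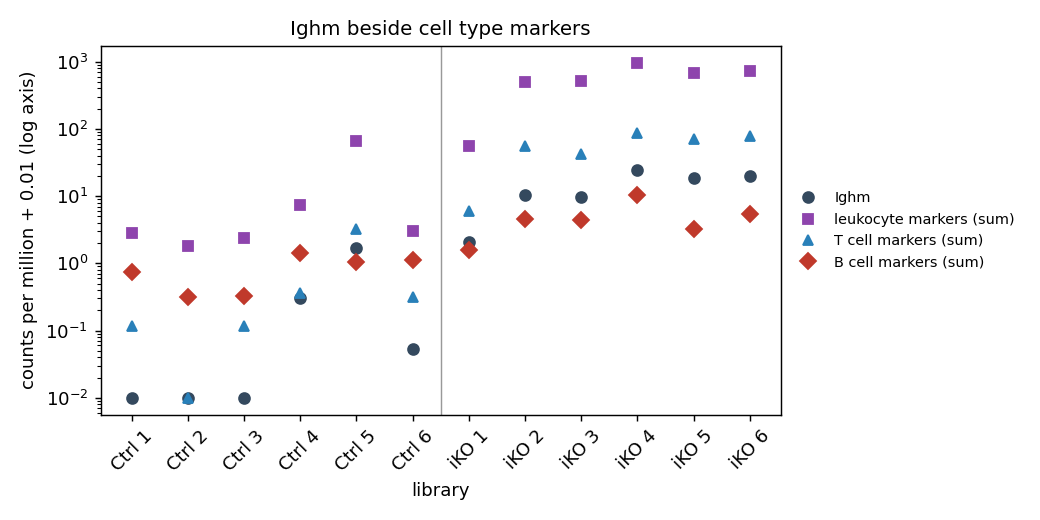
Ighm and the summed leukocyte, T cell and B cell markers in each library, in CPM plus 0.01 on a log axis, so that a count of 0 sits at 0.01. Ctrl 5 stands above the other Ctrl libraries and iKO 1 below the other iKO libraries in Ighm, leukocyte and T cell markers.

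Markers of other leukocytes moved with the immunoglobulin genes. The calls below stand beside 25.0% of all tested genes called higher and 21.4% called lower. Some of these markers, such as Cd3d with no Ctrl count outside Ctrl 5, passed the filter through their iKO counts. That favours calls of higher, so the call counts are a description only. The 4 leukocyte markers rose (4 of 4 called) and summed to 1.80 to 66.7 CPM in Ctrl and 55.6 to 967 CPM in iKO. The 5 T cell markers (5 of 5 called) summed to 0 to 3.20 CPM in Ctrl and 5.91 to 87.0 CPM in iKO, and the 5 macrophage markers (5 of 5 called) to 13.2 to 192 and 142 to 1201 CPM. Of 6 pigment cell markers, 5 fell, and they summed to 20998 to 21340 CPM in Ctrl and 14567 to 20936 CPM in iKO. The part of these shifts in the immunoglobulin values was not tested.

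Lists of genes that act before, during and after antibody production were read for the same libraries. Of 6 genes for the surrogate light chain and V(D)J recombination, 0 were tested, and Rag1, Rag2, Igll1 and Vpreb2 were at 0 in all libraries. Of the genes listed for class switching and somatic hypermutation, Exo1 fell by 0.80 (adjusted p = 0.000109), Msh6 by 0.43 (adjusted p = 0.000559) and Polh by 0.30 (edgeR, adjusted p = 0.00808). These encode DNA repair enzymes and a polymerase that dividing cells of many kinds use.

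Of 12 genes of B cell receptor signalling, 11 were tested, 10 rose and 0 fell, beside 25.0% higher and 21.4% lower over all tested genes. The median log2 fold change of the 11 was 3.11. Malt1 (1.49 ± 0.17, SE; adjusted p = 2.74e-05), Plcg2 (1.58, adjusted p = 0.000260), Pik3cd (1.31, adjusted p = 0.000293) and Lyn (3.81 ± 0.55, adjusted p = 0.000357) had the smallest p in edgeR. These kinases, lipases and adaptors also act in T cells or myeloid cells.

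Receptors that bind antibody rose together. Of 11 genes on that list, 7 were tested, 7 rose and 0 fell, beside 25.0% higher and 21.4% lower over all tested genes. The median log2 fold change of the 7 was 4.34. Fcgr4, an activating IgG receptor of myeloid cells, went from 1.66 ± 1.71 CPM in Ctrl to 64.0 ± 33.0 CPM in iKO (SD over 6 libraries each). Its log2 fold change was 5.28 ± 0.72 (SE; edgeR, adjusted p = 0.000243), and 6.04 without Ctrl 5. Fcgr2b, the inhibitory IgG receptor, rose by 2.83 (adjusted p = 0.000712), and Trim21, the cytosolic antibody receptor, by 1.52 (adjusted p = 2.87e-08). Fcgrt, the chain of the neonatal Fc receptor that recycles IgG, rose by 0.64 (adjusted p = 0.00136). Pigr and Fcamr, which bind polymeric IgA and IgM, were at 0 in all libraries. The macrophage marker sums given above moved with these receptors, and their part was not tested.

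Of 10 ligands and receptors of B cell attraction and survival, 6 were tested, 4 rose and 0 fell, beside 25.0% higher and 21.4% lower over all tested genes. The median log2 fold change of the 6 was 1.99. Ltb, the lymphotoxin subunit that shapes lymphoid tissue, rose by 6.03 ± 0.82 (SE; edgeR, adjusted p = 0.000152), and Tnfsf13b, which encodes the B cell survival factor BAFF, by 3.17 ± 0.46 (adjusted p = 0.000129). Cxcl13, the chemokine that draws B cells into follicles, held 14, 10, 16, 9, 8 and 33 counts in Ctrl and 14, 113, 75, 30, 73 and 0 in iKO. The Cxcl13 log2 fold change was 2.10 ± 0.76 (adjusted p = 0.0375). Leaving out Ctrl 1, 2, 3, 4 or 5, or iKO 2, 3 or 5, ended the call (adjusted p from 0.0605 to 0.0856), and with limma voom the log2 fold change was 1.01 (adjusted p = 0.546). Cxcr5, its receptor on B cells, was at 0 in Ctrl and held 0, 4, 5, 32, 18 and 49 counts in iKO. Il6, which supports plasma cell maturation, rose by 0.91 (adjusted p = 0.0435). Leaving out Ctrl 1, 2, 3, 4 or 6, or iKO 2, 3 or 5, ended that call (adjusted p from 0.0621 to 0.135).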

How the data were processed

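The authors deposited raw counts, whole numbers for each Ensembl gene, in 12 libraries. They were analysed as bulk, with 1 value per gene and library, although the library source label says single cell. The submitters' processing notes name the build mm10. No aligner or counting program, and no handling of mates and multi-mapped reads, is named in the sources used here. Per the labels' protocols, poly-T beads captured the messenger RNA and the libraries are not strand-specific. Of 62513 deposited values from 1 to 10, 69.6% were even, so counts may not be independent molecules and counting intervals may be too narrow.

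Groups were compared with edgeR 4.0.16 (robust quasi-likelihood test, TMM, filterByExpr with minimum count 10 and minimum total 15) in R 4.3.3, over 16164 genes with Benjamini-Hochberg adjustment and a threshold of 0.05. The SE is approximate, from the log2 fold change and its F statistic. CPM are TMM-scaled. Alternatives used DESeq2 1.42.0, limma 3.58.1, RLE factors, no filter, a replicate block and left-out libraries. The edgeR code was tested on simulated data. No same-group pair agreed within sampling noise (chi-square per degree of freedom 7.47 or more over 30 pairs).

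Sequences and exon overlaps came from GENCODE M21 (GRCm38, which mm10 names), where all 268 members matched with the same start and end. No promoter or protein sequence was used.

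Named genes were all C genes, for each locus the 6 V genes and 3 J or D genes with the highest counts, members with the smallest p of each pathway list (up to 4, or 2 by level where none passed), and Ptprc and Pecam1. Other V and J genes with few counts were named after their values were seen. So were genes listed by counts alone, such as Ms4a1, Cd79b and Jchain, and Tnfrsf13b, Xbp1, Sdc1, Pim2, Derl3 and Cd3d. The members and lists were chosen with earlier results of these data known. Some genes of the pathway lists are not reported here.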

Additional observations from a re-analysis of the deposited data

Results flagged for a closer look

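In 31 items (the tested named genes, the locus sums and the V gene number), the highest or lowest library of each group of 6 was set against the others. Of 62 such groups, 13 stood out by Dixon's criterion (the gap to the nearest library over the range of the group). Chance flags about 1 in 20 only for independent, normally distributed values. The items here are CPM, some near 0, and some share counts, such as Ighm and the Igh sum. That rate is therefore no measure of how unusual 13 flags are. Ctrl 5 was the high library for 9 items. It stood at 1.66 CPM for Ighm and 1.90 CPM for the Igh sum, against at most 0.291 and 0.670 in the other Ctrl libraries. It also stood at 15.6 CPM for Ptprc, 1.46 for Cd22, 16.1 for Plcg2, 14.0 for Lyn, 5.13 for Fcgr4, 24.7 for Fcgr2b and 34.6 for Fcgrt. In iKO 1, Fkbp11 was high (34.2 CPM) and Fcgr2b low (20.5 CPM). Exo1 was high in iKO 3 (31.4 CPM) and Il6 in iKO 5 (4.57 CPM).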

How the results depend on the processing

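Ighm and Igkc were the members called higher, and 0 were called lower, with DESeq2, limma voom, RLE factors, a replicate block, counts divided by 2 and rounded up (chosen after seeing the data), and without any library (2 to 2 higher, 0 to 0 lower). Without the filter 6 of 60 members were higher. Over 27 named genes, 512 values kept their side of the threshold, 28 lost the call (Cd22, Cxcl13 and Il6) and none reversed. Leaving out 1 library moved the Igh mean between 0.434 and 0.767 CPM in Ctrl and 15.3 and 20.2 in iKO, Igk between 0.0872 and 0.203 and between 1.76 and 3.17, Igl between 0.0211 and 0.0597 and between 0.141 and 0.264, V genes per library between 0.4 and 1 and between 6.4 and 8.4, and calls over all genes between 3553 and 4300 higher and 2727 and 3713 lower. With the replicate block, 2 members and 3489 of all genes were higher and 2984 lower, the log2 fold change of Ighm was 6.70, and the calls of Cxcl13 and Il6 were lost (adjusted p = 0.233 and 0.0948). Same-numbered libraries correlated at 0.27, -0.05, -0.04, -0.08, 0.22 and -0.16 in their deviations from the group means, and only Ctrl 1 and iKO 5 correlated best with their own number, so the numbers were not taken as pairs. Depth limits all V, D and J genes, none of which passed the filter.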
